A study of Mus musculus with 10 samples.

Results

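The cytosolic ribosomal protein genes were examined in ribosome-bound RNA of the mouse hippocampus. Members were the genes annotated as protein-coding on GRCm38 whose symbol names a cytosolic ribosomal protein (Rpl or Rps followed by a number, Rplp0 to Rplp2, or Rpsa), with ribosomal protein S6 kinases left out. The rule found 84 genes, 52 of the large and 32 of the small subunit, among 54838 gene identifiers. Of these, 79 passed the expression filter, which asked for more than 1 CPM, a read count scaled to the size of its library, in at least 2 libraries, 48 of the large and 31 of the small subunit. Rps10, Rpl24, Rpl3l, Rpl10l and Rpl39l did not pass.

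The data were 5 dorsal and 5 ventral libraries made by translating ribosome affinity purification (TRAP). All were from C57BL/6 males of the genotype MC-TRAP (Drd2-Cre;Eef1a1LSL.eGFPL10a/+), about 10 weeks old. Each library was a pool of hippocampal tissue from 5 mice, so that the p-values below measure the spread between pools and not between mice. By the study's methods the hippocampi were divided into dorsal and ventral parts, so both groups hold tissue of the same mice. Which libraries share mice is not given, and the main fit does not use it. In these mice Cre recombinase, driven by Drd2 regulatory sequence, switches on an EGFP-tagged copy of ribosomal protein L10a from the Eef1a1 locus, and ribosomes that carry the tag are precipitated with antibodies to EGFP. The dorsal libraries used the shorter dorsal segment of the hippocampus and the ventral libraries the longer ventral remainder, with the ventral subiculum removed. The labels name the cells hippocampal mossy cells, the glutamatergic neurons of the dentate hilus, but Drd2-Cre is also active in sparse interneurons and subicular neurons.

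A ribosome is built from ribosomal RNA and about equal numbers of copies of each ribosomal protein, so cells make these proteins together. Their mRNAs are the best-known terminal oligopyrimidine (TOP) mRNAs: transcription starts at a cytosine that is followed by an uninterrupted run of pyrimidines, and the mTOR kinase, through the RNA-binding protein Larp1, controls how many ribosomes such mRNAs carry. A TRAP library counts ribosome-bound mRNA, and the values used here are relative to all counts of the library. A lower value can thus come from a different mix of cells or of other RNA in the library, from less mRNA per cell or from less ribosome loading. These cannot be told apart here.

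RefSeq promoter windows on GRCm38.p6 were at hand for 64 of the 84 genes. A tract of C followed by at least 4 C or T bases that began within 10 bases of the annotated start was present in 35 of them (54.7%), against 29.1% of the windows of all 27025 genes. The element CCGGAA, read on either strand over 300 bases, was present in 50.0% of the members and 15.2% of all windows, GGGCGG in 60.9% and 35.9%, and TATAAA in 9.38% and 14.2%. Annotated starts can be wrong by some bases, so these matches are a description of letters. The start windows are shown for Rpl10a, the gene of the tagged protein, for the 4 genes called different between the groups, and for Rps27, the close relative of the most different of them. Each runs from 10 bases before the annotated start to 20 bases from it onward, 5′ to 3′ on the gene's own strand, and capitals mark the tract. The windows lie at chr17:28328461-28328490 on the plus strand for Rpl10a, chr9:66946076-66946105 (plus) for Rps27l, chr3:90213629-90213658 (minus) for Rps27, chr17:24720053-24720082 (plus) for Rps2, chr10:128626487-128626516 (minus) for Rps26 and chr12:69184048-69184077 (minus) for Rpl36al.
Rpl10a: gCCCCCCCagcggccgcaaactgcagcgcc
Rps27l: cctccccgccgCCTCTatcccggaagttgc
Rps27: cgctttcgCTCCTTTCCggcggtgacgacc
Rps2: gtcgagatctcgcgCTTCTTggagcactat
Rps26: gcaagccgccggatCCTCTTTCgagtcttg
Rpl36al: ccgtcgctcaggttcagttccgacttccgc
Rpl36al is the only gene of these 6 without a tract that begins within 10 bases of the annotated start. Runs of C and T that begin farther away, as near the end of the Rpl36al window, are not in capitals. Among the members that passed the filter, the 31 with a tract had a median log2 fold change of -0.30, dorsal over ventral, and the 28 without it -0.32.

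Total counts on genes were 11138676 to 20594364 per library, and a floor of 3 counts corresponded to 0.142 to 0.282 CPM, which covers counting error only. Markers fixed for the other cell types differed between the groups. The summed level of 7 oligodendrocyte markers was 2214 to 2588 CPM across dorsal and 797 to 1475 CPM across ventral libraries, and that of 6 astrocyte markers 1834 to 2088 and 660 to 1212 CPM. The sum of 9 interneuron markers was 3486 to 4488 and 4260 to 5464 CPM, most of it from Gad2 (means of 2853 and 3174 CPM). All 9 had a log2 fold change below 0, dorsal over ventral, with a median of -0.46. In edgeR 6 of them (66.7%, against 14.6% of all genes tested) had an adjusted p below 0.05. Sst, Pvalb and Lhx6 (33.3%, against 9.85%) were ventral-enriched. The sum of 10 mossy cell markers was 2037 to 2215 and 2031 to 2341 CPM. Of these 10, 4 were dorsal-enriched (Gria2, Gria3, Cyp26b1 and Ajap1, log2 fold changes 0.62 to 1.05) and 3 ventral-enriched (Calb2 -3.24, Slc17a6 -1.39 and Satb1 -0.74), so the similar sums hold members that differ in both directions. With offsets for GC content and length in the fit, Cyp26b1, Ajap1 and the 3 ventral-enriched genes kept their calls. Gria3 lost its call (log2 fold change 0.39), and Gria2 reversed to -0.43 (edgeR adjusted p = 0.00282) and was not called. Drd2, the gene that drives Cre, averaged 28.1 ± 3.96 and 20.7 ± 4.36 CPM (SD, n = 5), and the receptor gene Calcrl 7.52 ± 7.89 and 8.25 ± 2.63 CPM. None of these markers was at 0 in all libraries. Reads outside annotated genes were 21.8 to 33.9% in dorsal and 11.6 to 19.3% in ventral libraries, and mRNA of the mitochondrial genome was 2773 to 3524 CPM and 447 to 1257 CPM. The part of these differences in the results below was not tested.

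Ribosomal protein mRNA was lower in dorsal than in ventral libraries by a small amount that was spread over most of the genes. The summed level of the 84 genes was 6718, 8098, 8390, 7569 and 7678 CPM in replicates 1 to 5 of the dorsal group, against 8416, 8615, 9180, 9424 and 10210 CPM in those of the ventral group. The lowest value was that of dorsal replicate 1, and the groups did not overlap, although dorsal replicate 3 and ventral replicate 1 were almost level. The means were 7691 ± 636 (SD, n = 5) and 9169 ± 711 CPM, a ratio of 1.19 for ventral over dorsal. The genes held 0.641 to 0.893% of all counts in dorsal and 0.810 to 1.05% in ventral libraries, and on this scale, without the TMM factors, the groups overlapped. The subunits moved together: the sum of large subunit genes was 1.35 ± 0.045 times that of small subunit genes in dorsal and 1.35 ± 0.031 times in ventral libraries. Rpl4, whose product lines the peptide exit tunnel, alone gave 641 ± 34.1 and 626 ± 81.9 CPM.

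**Figure D1:**
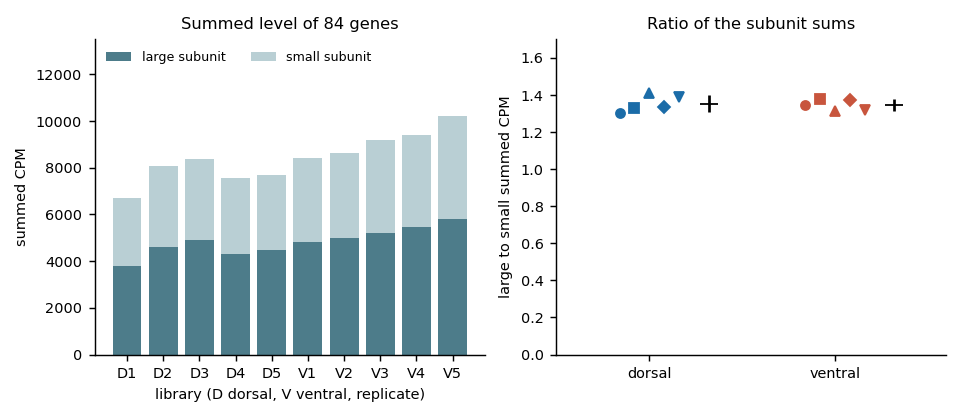
Summed CPM of the 84 ribosomal protein genes in each library, stacked by subunit (left), and the ratio of the large to the small subunit sum with the mean ± SD of 5 libraries (right). The dorsal bars reach 6718 to 8390 CPM and the ventral bars 8416 to 10210 CPM, while the ratio is 1.35 in both groups.

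Gene by gene, 73 of the 79 genes had a log2 fold change below 0, meaning lower in dorsal libraries, against 50.4% of all 16806 genes tested and 53.3% of protein-coding genes. The median over the 79 genes was -0.30, beside -0.0044 over all genes tested and -0.041 over protein-coding genes. It was -0.34 for the 48 large and -0.27 for the 31 small subunit genes, and the range ran from -1.06 for Rps27l to 0.19 for Rpl30. The 6 genes above 0 were Rpl30, Rpl5, Rpl4, Rps4x, Rps9 and Rpsa, none at an unadjusted p below 0.05, with log2 fold changes of 0.00197 to 0.19. Offsets for GC content and length, which moved the median of all genes to -0.17, took 5 of them below 0 (Rpl4 -0.22, Rpl5 -0.21, Rps4x -0.21, Rpsa -0.15 and Rps9 -0.065) and left Rpl30 at 0.23. A gene was called enriched when edgeR's quasi-likelihood test gave a Benjamini-Hochberg adjusted p below 0.05 and the mean CPM + 1 differed by more than 0.58 on the log2 scale. By that rule 4 of the 79 genes (5.06%) were ventral-enriched, against 9.85% of all genes tested and 10.3% of protein-coding genes. With edgeR's own fold in place of that ratio, Rpl35 was added as the 5th (6.33%, against 10.2% of all genes tested). No gene was dorsal-enriched (background 15.7% of all genes tested and 11.4% of protein-coding genes), whether by edgeR or by DESeq2, and none was higher in dorsal libraries at an unadjusted p below 0.05 in edgeR (background 24.0%). Without the fold threshold, 17 genes (21.5%) were lower in dorsal libraries at an adjusted p below 0.05 in edgeR, against 14.6% of all genes tested and 16.1% of protein-coding genes, and none was higher (background 19.0%). In 11 genes (13.9%) every ventral library was above every dorsal library, against a background of 8.36% of all genes and 9.58% of protein-coding genes, and in no gene was the reverse true (9.81%). Thus the share of called genes was below the background, while the share of small differences in this direction was above it.

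**Figure D2:**
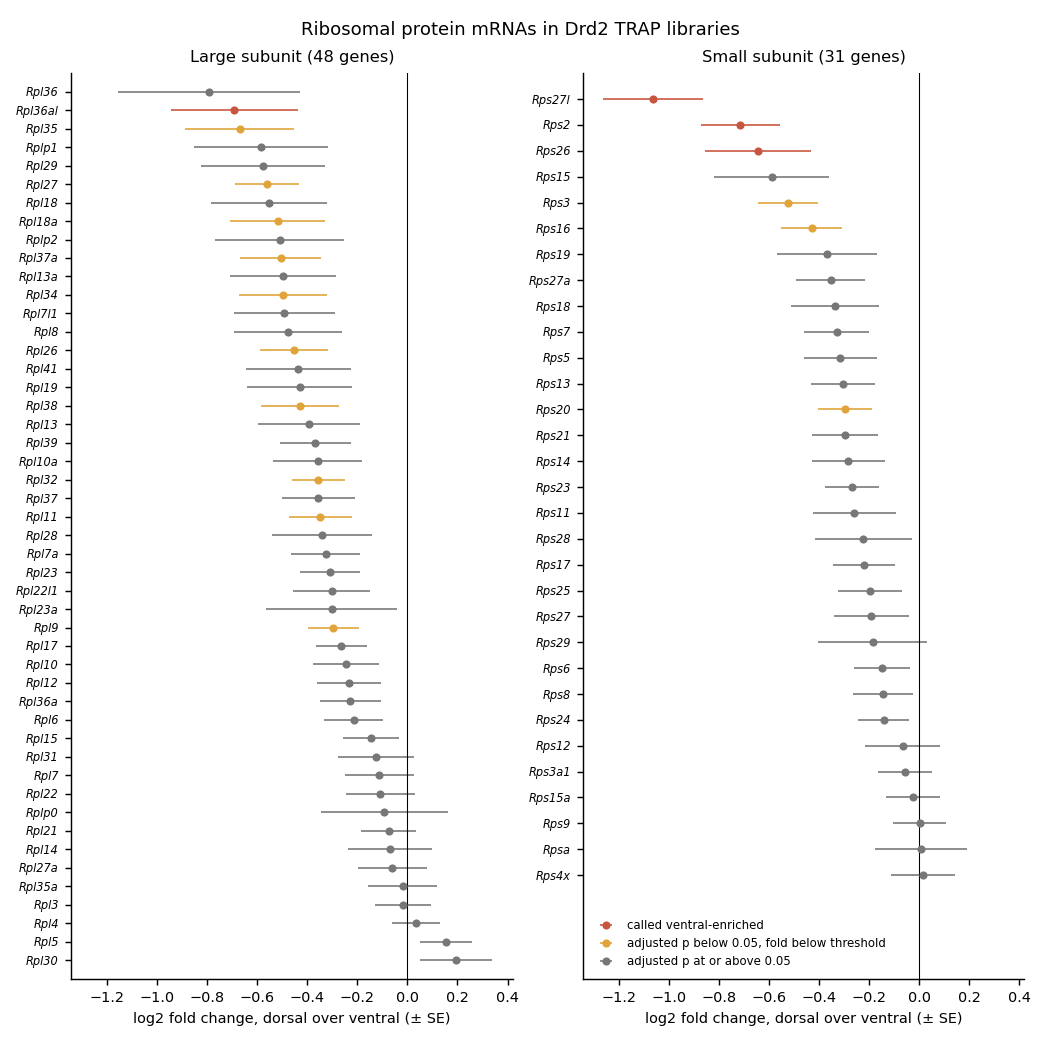
Log2 fold change, dorsal over ventral, with its standard error (edgeR), for the 48 large (left) and 31 small subunit genes (right) that passed the filter, coloured by the outcome of the test. All but 6 of the points lie left of 0, between -1.06 and 0.19, and 4 are called ventral-enriched.

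Rpl10a (ENSMUSG00000037805, chr17:28328471-28331033, plus strand) encodes the protein that carries the tag. Its level was 22.7, 34.5, 51.3, 32.9 and 41.0 CPM in replicates 1 to 5 of the dorsal group, against 40.6, 49.7, 42.6, 51.9 and 50.6 CPM in those of the ventral group. Dorsal replicate 3 lay within the ventral range and dorsal replicate 1 was the lowest, so the groups overlapped. The difference did not pass the test (log2 fold change -0.36, SE 0.18, adjusted p = 0.131 in edgeR). Over 23 alternative settings the log2 fold change stayed between -0.51 and -0.24, with edgeR or DESeq2 adjusted p-values of 0.028 to 0.252, and Rpl10a was called in none of them. Reads of the transgene and of the native gene are not separated in these counts. In addition, 88.1% of the 50-base words of the Rpl10a transcript also occur in transcripts of other genes, and 11.9% do not. The reads are paired, so either end of a pair can place it, and the share of pairs counted for Rpl10a was not measured. Its processed copy Rpl10a-ps1 had 5.44 ± 1.12 CPM across dorsal and 7.14 ± 0.578 CPM across ventral libraries (log2 fold change -0.41, edgeR adjusted p = 0.166). Eef1a1, the locus that carries the transgene and itself a TOP mRNA for translation elongation factor 1 alpha, had 297 ± 23.8 and 307 ± 41.5 CPM (log2 fold change -0.047, edgeR adjusted p = 0.762).

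Over the 10 libraries, the genes outside the group whose log2 CPM followed Rpl10a most closely were Fxyd7, a regulator of the sodium pump (Pearson r = 0.962), Bnip1, a SNARE protein (0.961), and Mrps21, a mitochondrial ribosomal protein (0.959). Among the ribosomal protein genes they were Rpl37a (0.917), Rpl41 (0.913) and Rpl19 (0.909). These correlations are descriptions that share the same 10 libraries and their 2 groups.

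The gene with the largest difference was Rps27l (ENSMUSG00000036781, chr9:66946086-66949516, plus strand), a paralog of the small subunit gene Rps27 that is known as a p53 target. It had 7.06, 10.3, 8.65, 5.95 and 5.81 CPM in replicates 1 to 5 of the dorsal group, against 16.3, 12.7, 16.5, 16.1 and 17.0 CPM in those of the ventral group. All ventral libraries were above all dorsal libraries (log2 fold change -1.06, SE 0.20, adjusted p = 0.00159 in edgeR). The call held in all 23 alternatives, in which the log2 fold change was -1.32 to -0.97. Rps27 itself (chr3:90212522-90213651, minus strand) had 113 ± 17.2 CPM across dorsal and 128 ± 27.8 CPM across ventral libraries and did not pass the test (log2 fold change -0.19, SE 0.15, adjusted p = 0.342 in edgeR). Rps27l therefore made up 6.35 ± 1.85% of the CPM of the pair in dorsal libraries (5.02 to 9.55%) and 11.2 ± 1.57% in ventral libraries (8.92 to 12.9%). These ranges overlap by a little, since dorsal replicate 2 was above the lowest ventral library. Of the Rps27 transcript, 98.6% of 50-base words recur in other genes, so its level is uncertain, whereas for Rps27l the share is 22.4%.

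Rps2 (ENSMUSG00000044533, chr17:24718116-24721929, plus strand) encodes a small subunit protein at the channel through which mRNA enters the ribosome. Its levels were 136, 207, 194, 179 and 199 CPM in the dorsal group against 272, 243, 434, 279 and 281 CPM in the ventral group. The groups did not overlap, and ventral replicate 3 stood far above the other ventral libraries (log2 fold change -0.71, SE 0.16, adjusted p = 0.00409 in edgeR). Without ventral replicate 3 the log2 fold change was -0.55 and the fold was below the threshold, with an edgeR adjusted p of 0.00461. Of its 50-base words, 71.3% recur in other transcripts. Rps3, a neighbour of Rps2 at the mRNA entry channel, was chosen here after its values were seen; it had 134 ± 16.9 and 193 ± 23.8 CPM, with no overlap and only 2.96% of words shared (log2 fold change -0.52, edgeR adjusted p = 0.00487, below the fold threshold). Fau, which encodes the third protein of that site, small subunit protein S30, as a fusion and was listed apart because of its name, had 53.2 ± 16.1 and 91.5 ± 10.9 CPM and was called ventral-enriched (log2 fold change -0.76, SE 0.19, adjusted p = 0.00826 in edgeR).

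Rps26 (ENSMUSG00000025362, chr10:128624534-128626747, minus strand), whose product sits where the mRNA leaves the small subunit, had 30.0, 85.9, 99.8, 78.7 and 82.0 CPM in the dorsal group against 105, 105, 130, 127 and 128 CPM in the ventral group. Dorsal replicate 1 was far below the other 4 dorsal libraries, and no dorsal library reached the ventral range. The call (log2 fold change -0.65, SE 0.21, adjusted p = 0.0318 in edgeR) was lost without dorsal replicate 1 because the fold fell under the threshold (log2 fold change -0.45, edgeR adjusted p = 0.00932). It was lost in 7 of 23 alternatives in all, among them those without dorsal replicate 4 or 5 or ventral replicate 3, 4 or 5.

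Rpl36al (ENSMUSG00000049751, chr12:69182731-69184083, minus strand), an autosomal paralog of the X-linked large subunit gene Rpl36a, had 11.2, 14.0, 11.4, 12 and 15.2 CPM in the dorsal group against 34.0, 16.7, 22.9, 13.5 and 15.7 CPM in the ventral group. The groups overlapped, and ventral replicate 1 was the highest (log2 fold change -0.69, SE 0.25, adjusted p = 0.0484 in edgeR). Without ventral replicate 1 the log2 fold change was -0.41 and the edgeR adjusted p 0.135, and the call was lost in 12 of 23 alternatives, among them those without any single dorsal library or without ventral replicate 3 (edgeR or DESeq2 adjusted p = 0.0275 to 0.135 over the 23). Without ventral replicate 1, 7 ribosomal protein genes were called, against 9.96% of all genes tested, and without dorsal replicate 2, 8 were, against 11.0%. In 26.0% of its transcript Rpl36al is overlapped by another gene model on the same strand. Rpl36a had 134 ± 13.8 and 157 ± 23.1 CPM (log2 fold change -0.23, edgeR adjusted p = 0.159).

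**Figure D3:**
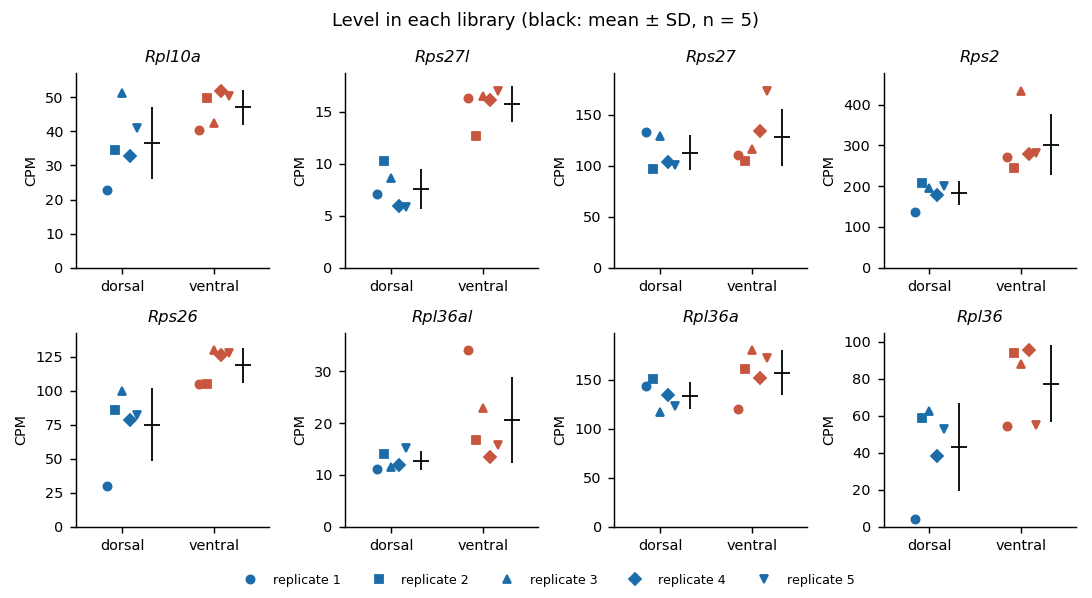
CPM in each library of Rpl10a, the 4 ventral-enriched genes (Rps27l, Rps2, Rps26, Rpl36al), the relatives Rps27 and Rpl36a, and Rpl36; symbols mark replicates and black bars the mean ± SD of 5 libraries. Rps27l, Rps2 and Rps26 show no overlap between the groups, while dorsal replicate 1 (circle) is the lowest dorsal library for Rpl10a, Rps2, Rps26, Rpl36al and Rpl36.

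In the other paralog pairs no member passed the test in the main fit. Rpl22l1, which can stand in for Rpl22 in the large subunit, had 17.9 ± 3.18 and 21.8 ± 1.34 CPM (log2 fold change -0.30, edgeR adjusted p = 0.141), and Rpl22 had 69.3 ± 7.61 and 74.2 ± 12.9 CPM (log2 fold change -0.11, edgeR adjusted p = 0.569). Opposite-strand models overlap 28.8% of the Rpl22l1 transcript. Rpl22l1 was 20.6 ± 3.28% of the pair in dorsal and 23.0 ± 3.04% in ventral libraries. Rpl7l1, a relative of Rpl7, was 10.5 ± 2.59% and 13.0 ± 2.57% of its pair, with 12.1 ± 2.16 and 16.9 ± 4.01 CPM (log2 fold change -0.49, edgeR adjusted p = 0.0737), and Rpl7 had a log2 fold change of -0.11. With offsets for GC content and length, Rpl22l1 (log2 fold change -0.94, edgeR adjusted p = 0.00109) and Rpl7l1 (-0.67, edgeR adjusted p = 0.0258) were ventral-enriched. That fit called 18.2% of all genes ventral-enriched. Rpl36al was 8.76 ± 1.39% of its pair in dorsal and 11.8 ± 5.81% in ventral libraries, where a single library reached 22.0%. The remaining 3 paralogs were close to the floor. Rpl3l, known from striated muscle, had at most 0.204 CPM in any library, Rpl10l, known from testis, was detected in ventral replicate 3 alone (0.0844 CPM), and Rpl39l, also known from testis, had at most 0.585 CPM. Their widely expressed partners Rpl3 (log2 fold change -0.019), Rpl10 (-0.25) and Rpl39 (-0.37) did not pass the test in edgeR (adjusted p = 0.914, 0.161 and 0.058).

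Rps10 and Rpl24 encode core proteins of the small and the large subunit but had at most 1.82 and 0.753 CPM. Both lie under other gene models on the same strand. A readthrough model that joins Rps10 with Nudt3 covers 53.6% of the Rps10 transcript, and Gm28037 covers 71.5% of the Rpl24 transcript. Both of those models also had 0 CPM in every library. Reads that fall on more than 1 gene are set aside in these counts, as 5.92 to 8.66% of reads were, so the values of Rps10 and Rpl24 cannot be read as their levels.

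Among the other roles of ribosomal proteins, most genes again had values below 0, none of them called. The genes in this paragraph were chosen for their roles after their values were seen, except where a level rank named them. The stalk that recruits translation factors is made of Rplp0, Rplp1 and Rplp2. Rplp1 had 156 ± 67.2 and 236 ± 49.6 CPM (log2 fold change -0.58, SE 0.27, adjusted p = 0.103 in edgeR), Rplp2 95.0 ± 39.5 and 137 ± 22.7 CPM (log2 fold change -0.51, edgeR adjusted p = 0.139), and Rplp0 49.3 ± 21.4 and 53.5 ± 7.60 CPM (log2 fold change -0.092, edgeR adjusted p = 0.808). The large SDs of the dorsal libraries come with replicate 1, which had the lowest dorsal value of all 3 genes (56.9, 30.2 and 17.3 CPM). Rpl5 and Rpl11, whose products bind the smallest ribosomal RNA and restrain Mdm2, gave different values: Rpl11 was lower in dorsal libraries (log2 fold change -0.35, edgeR adjusted p = 0.048), while Rpl5 had 108 ± 6.68 and 96.8 ± 10.3 CPM (log2 fold change 0.15, edgeR adjusted p = 0.272) and is overlapped over 46.6% by Fam69a on the opposite strand. With offsets for GC content and length both were below 0, Rpl5 at -0.21 and Rpl11 at -0.44. Rps6, whose phosphorylation is a common readout of mTOR activity, had 46.7 ± 2.44 and 51.8 ± 4.82 CPM (log2 fold change -0.15, edgeR adjusted p = 0.32). Rpl27 showed the smallest adjusted p of the genes that were not called, with 30.8 ± 2.60 and 45.4 ± 5.31 CPM and no overlap between the groups (log2 fold change -0.56, SE 0.13, adjusted p = 0.00484 in edgeR).

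The genes just inside and just outside the fold threshold show how closely the calls hang on it. On the log2(mean CPM + 1) scale, Rps26 and Rpl36al were inside it at -0.65 each, and Rpl35 at -0.57 and Rpl27 at -0.54 were outside although their edgeR adjusted p-values were 0.0295 and 0.00484. Rps15 at -0.60 and Rplp1 at -0.59 were beyond the fold threshold, but their edgeR adjusted p-values were 0.0597 and 0.103.

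Dorsal replicate 1 stood apart for these genes, and in a way that followed base composition. In this library 18 of the 79 genes were more than 1 log2 unit below the median of the other 4 dorsal libraries, on a log2(CPM + 1) scale, against 9.90% of all genes tested, and in each of the other 9 libraries 0 genes were so far below their group. The most extreme was Rpl36 (ENSMUSG00000057863, chr17:56613416-56614243, plus strand), a large subunit gene with the highest GC content of the group (60.8%). It had 4.14, 58.5, 62.5, 38.4 and 52.6 CPM in the dorsal group against 54.3, 93.8, 87.8, 95.3 and 54.8 CPM in the ventral group. Dorsal replicate 1 was thus 11-fold below the median of the other dorsal libraries for CPM + 1, and the groups overlapped (log2 fold change -0.79, SE 0.36, adjusted p = 0.105 in edgeR). Rplp2 was 3.61-fold, Rpl29 3.44-fold and Rpl18 3.36-fold lower in that library. Rpl4, by contrast, was highest in dorsal replicate 1, with 702 CPM against 621 to 629 CPM in the other dorsal libraries.

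Across the 79 genes, the deviation of dorsal replicate 1 had a Pearson correlation of -0.63 with GC content, and across all genes tested -0.26. The other libraries gave -0.20 to 0.46 across the 79 genes. These correlations are across genes of 1 library, which are not independent replicates. The 26 genes of highest GC content (53.6 to 60.8%) summed to 1339 CPM in dorsal replicate 1 and 2254 to 2616 CPM in the other dorsal libraries, while the 27 genes of lowest GC content (40.6 to 49.2%) summed to 3687 CPM there and 3378 to 3627 CPM in the other dorsal libraries. The dorsal-ventral difference remained in every class without this library. The median log2 fold change of the high-GC genes went from -0.44 to -0.29 without dorsal replicate 1, that of the middle genes from -0.25 to -0.21, and that of the low-GC genes stayed at -0.25. Over the 79 genes together the median went from -0.30 to -0.25, and the number called ventral-enriched from 4 to 2 (Rps2 and Rps27l), against 9.47% of all genes tested in that fit. The correlation of log2 fold change with GC content across the 79 genes was -0.34 with and -0.084 without dorsal replicate 1.

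**Figure D4:**
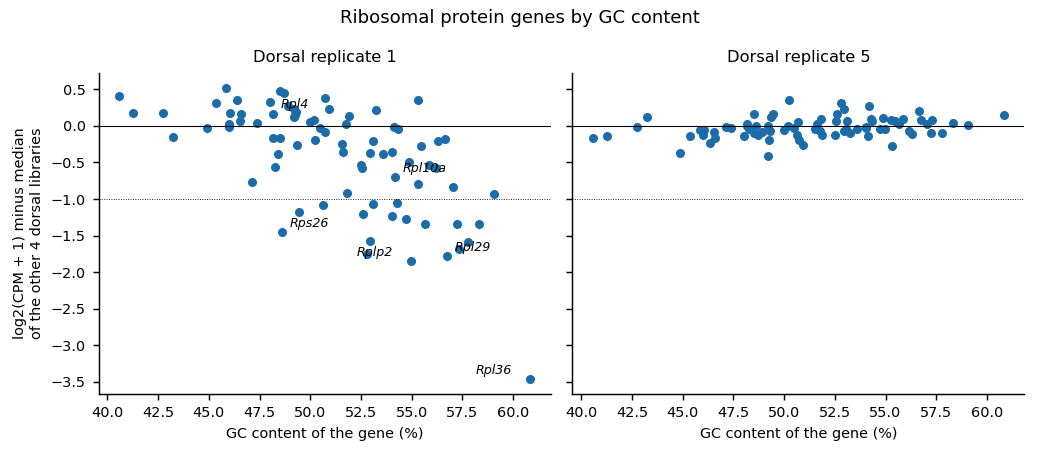
Difference of log2(CPM + 1) in dorsal replicate 1 (left) and dorsal replicate 5 (right) from the median of the other 4 dorsal libraries, against the GC content of each of 79 genes; the dotted line marks 1 log2 unit lower. In replicate 1, 18 genes lie below the dotted line and Rpl36 lies lowest, while in replicate 5 no gene does.

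Levels were compared between genes as mean CPM per kilobase of the annotated principal transcript. They ranged 81.0-fold, from 5.57 for Rpl7l1 to 451 for Rpl41, with a median of 100 CPM per kb. Rpl41, which encodes the smallest ribosomal protein, was followed by Rpl4 (412), Rplp1 (393), Rps27 (349) and Rps21 (313 CPM per kb). The lowest after Rpl7l1 were Rpl35 (10.5), Rpl13a (11.3), Rpl36al (13.1) and Rpl23a (14.6 CPM per kb). Rpl10a lay at 57.3 CPM per kb, 58th of 79. The median was 92.9 CPM per kb for large and 141 for small subunit genes, a ratio of 1.52 that became 1.26 when the union of all annotated exons served as length. With the union of exons Rplp1 was the highest and Rps27 the 11th, and Rpl7l1 was the lowest on both.

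Several of the low values belong to genes whose reads are hard to assign. Rpl35 is overlapped over 68.3% of its transcript by genes on the opposite strand and Rpl23a over 55.4%, and the library kit does not keep strand. Rpl13a is overlapped over 59.3% by models on its own strand. Of Rpl23a, 82.6% of 50-base words recur elsewhere. Over all 79 genes the recurring share was 0 to 98.6%, with a median of 43.2%, and across genes it had a Pearson correlation of 0.26 with log2 CPM per kb and 0.073 with the log2 fold change. The dorsal-ventral difference was alike in the 47 genes that share up to 50% of their words (median log2 fold change -0.31) and the 32 genes that share more (-0.30).

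**Figure D5:**
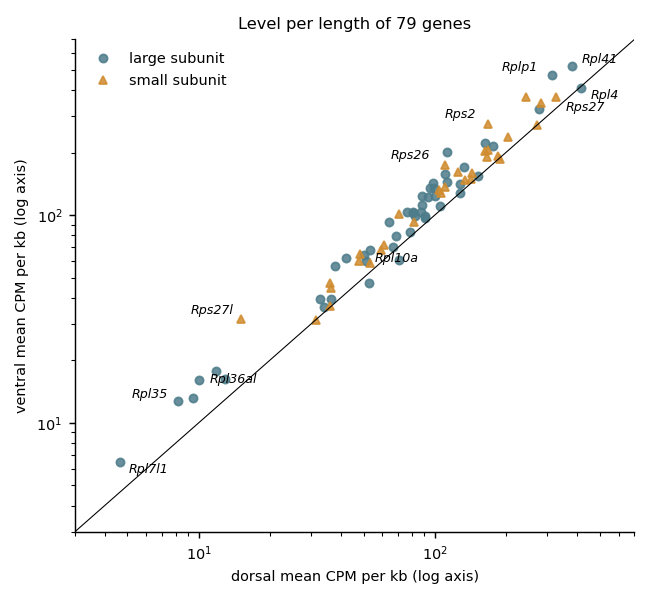
Mean CPM per kilobase of the principal transcript in dorsal (x axis) and ventral libraries (y axis), both on log axes, for 79 genes by subunit; the line marks equal levels. Most points lie a little above the line, from Rpl7l1 at the lower end to Rpl41 and Rpl4 at the upper end, and Rps27l lies farthest above it.

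Annotated pseudogenes of ribosomal proteins, mostly processed copies of the mRNAs, were followed as a readout of reads that the parents and their copies share. Only pseudogenes whose symbol begins with Rpl or Rps and ends in -ps, with or without a number, were listed. Genes with other symbols that share sequence with a member, such as Gm10240 with Rpl21, were not, so the sums below do not cover all copies. The summed level of all 294 listed was 162 ± 11.2 CPM across dorsal and 198 ± 18.4 CPM across ventral libraries. That is 0.0211 and 0.0217 of the parents' summed level. Of the 294, 63 passed the filter, with a median log2 fold change of -0.35. Among these 63, 2 were ventral-enriched (3.17%, against 9.85% of all genes tested) and 1 dorsal-enriched (1.59%, against 15.7%).

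Genes that work with ribosomal proteins were followed in lists. Of 18 other TOP mRNAs, mostly elongation and initiation factors, none was called in either direction by edgeR or DESeq2. In edgeR 9.85% of all genes tested were ventral-enriched and 15.7% dorsal-enriched. The median log2 fold change of the 18 mRNAs was -0.16. At an unadjusted p below 0.05 in edgeR, 7 of them were lower and 1 higher in dorsal libraries (38.9% lower, against 20.8% of all genes tested, and 24.0% of all genes higher). Of 25 assembly factors of the small subunit, 4 (16%, against 9.85% of all genes tested) were ventral-enriched and none (against 15.7%) dorsal-enriched by edgeR or DESeq2, although 6 had a log2 fold change above 0 (none of them at an unadjusted p below 0.05); the median was -0.23. The 3 largest were Wdr43 (18.6 ± 5.77 and 33.0 ± 2.47 CPM, log2 fold change -0.83, edgeR adjusted p = 0.00421), a part of the early processome, Ltv1 (23.0 ± 5.32 and 39.5 ± 12.1 CPM, log2 fold change -0.79, edgeR adjusted p = 0.0149), another assembly factor, and Nob1 (8.37 ± 1.77 and 13.9 ± 4.26 CPM, log2 fold change -0.75, edgeR adjusted p = 0.0277), the nuclease that makes the mature end of the small subunit RNA.

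Of 25 large subunit assembly factors, 5 (20%) were ventral-enriched and 3 (12%) dorsal-enriched, against 9.85% and 15.7% of all genes tested, with a median of -0.31. Mdn1, a very large ATPase that strips factors from the maturing particle, was higher in dorsal libraries, with 76.6 ± 15.6 against 24.7 ± 5.05 CPM (log2 fold change 1.65, SE 0.17, adjusted p = 2.86e-05 in edgeR). Gnl3, or nucleostemin, was lower, with 28.4 ± 5.30 and 57.5 ± 17.5 CPM (log2 fold change -1.03, edgeR adjusted p = 0.00224), and so was Eif6, which keeps the subunits from joining too early, with 15.7 ± 1.36 and 29.0 ± 7.82 CPM (log2 fold change -0.90, edgeR adjusted p = 0.00382). Of 6 tested chaperones of single ribosomal proteins and 15 regulators of TOP mRNAs, Larp1 and Mtor included, none was called in either direction by edgeR or DESeq2. The edgeR background was 9.85% ventral-enriched and 15.7% dorsal-enriched. At an unadjusted p below 0.05 in edgeR, 2 of the chaperones (33.3%) and 2 of the regulators (13.3%) were lower in dorsal libraries, against 20.8% of all genes tested. None of the chaperones and 1 of the regulators were higher, against 24.0% of all genes tested. Larp1 had 132 ± 21.5 and 140 ± 15 CPM (log2 fold change -0.085, edgeR adjusted p = 0.637).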

How the data were processed

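RNA bound to tagged ribosomes was amplified (Ovation), made into TruSeq libraries that do not keep strand, and read as paired ends of 50 bases. Per the submitters' processing notes, the authors used STAR 2.5.2b, HTSeq 0.7.2 and GRCm38. Each library has 1 deposited table of whole-number counts per Ensembl gene, neither normalized nor filtered. Summary lines of the counter and lines that name no gene were left out. GENCODE annotation of GRCm38 matched 54809 of 54838 identifiers and gave biotype, position, GC content and transcripts.

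Counts were fitted in R 4.3.3 with edgeR 4.0.16 (TMM factors, genes above 1 CPM in at least 2 libraries, quasi-likelihood test, dorsal against ventral, no covariate), with Benjamini-Hochberg adjustment over all 16806 genes tested. A call needed an adjusted p below 0.05 and a log2 ratio of mean CPM + 1 beyond 0.58. The study's methods give both thresholds but not the scale of the fold, and edgeR's own fold was an alternative. All p-values are two-sided. Lists, sums and medians have no test. Named genes were Rpl10a, the paralog pairs, called members, the 5 highest and 5 lowest levels per kb, members that failed the filter, the 3 largest called genes of each other list and the 3 closest correlates of Rpl10a. The members and lists were chosen with earlier results of these data known. Shared sequence was the share of 50-base words of the principal transcript found in transcripts of other genes that do not overlap it. Start windows came from RefSeq (GRCm38.p6).

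Alternatives were other size factors (DESeq2, upper quartile, total counts), other filters, DESeq2 1.42.0, edgeR's likelihood-ratio test, a threshold on edgeR's own fold, a replicate block, offsets fitted to GC content and length (mgcv 1.9.3), the block with those offsets, nuclear protein-coding genes only, each library left out, and, chosen after seeing the data, edgeR 3 quasi-dispersions and another transcript length. The length in the offsets was that of the union of annotated exons. The fit was tested on simulated data. Libraries of a group differed beyond sampling noise in every pair.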

Additional observations from a re-analysis of the deposited data

Results flagged for a closer look

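Within a group of 5 libraries, 4 of 52 sets of values among the named genes and sums held 1 library set far from the other 4; chance gives about 1 in 20 such sets. Rpl4 was highest in dorsal replicate 1, at 701.9 CPM against 621 to 629 CPM in the other dorsal libraries. Rpl41 was lowest in the same library, at 95.8 CPM against 240 to 289 CPM. Rps2 was highest in ventral replicate 3, at 434 CPM against 243 to 281 CPM in the other ventral libraries. Rps27l was lowest in ventral replicate 2, at 12.7 CPM against 16.1 to 17.0 CPM. Over all 79 genes that passed the filter, 18 of 158 such sets (11.4%) held a library set apart in this way, and in 9 of the 18 it was dorsal replicate 1.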

How the results depend on the processing

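No ribosomal protein gene was called dorsal-enriched in any of 23 alternatives of the edgeR fit, and the median log2 fold change over the genes was negative in all of them, from -0.46 to -0.25. The number called ventral-enriched, 4 in the fit reported, was 8 without the expression filter (5.03% of all genes called) and 14 with offsets for GC content and length. That correction also moved the median of all genes from -0.0044 to -0.17, so that the members' median of -0.43 lay 0.26 below it, against 0.30 without the correction, and called 18.2% of all genes ventral-enriched. The median of the other lists of ribosome assembly and TOP mRNAs, -0.19, became -0.39. Leaving out each library in turn gave 2 to 8 ventral-enriched genes (2 without dorsal replicates 1, 4 or 5, 8 without dorsal replicate 2 and 7 without ventral replicate 1), with medians of -0.33 to -0.25. In those fits 7.33% (without dorsal replicate 5) to 11.0% (without dorsal replicate 2) of all genes were ventral-enriched. The median of the pseudogenes was -0.45 to -0.30, that of the other lists -0.23 to -0.17, Rpl10a -0.51 to -0.24 and the log2 ratio of the summed levels -0.29 to -0.21. The ratio of small to large subunit levels per kb was 1.26 with the union of exons and 1.44 with the shortest transcript of the same coding length as length. Of 483 values of the 21 other named genes, 451 kept their side of the call, 20 lost a call, 12 gained it and 0 calls reversed. The setting with nuclear protein-coding genes only gives no value for pseudogenes. Beyond these constructions the causes were not tested, and genes near the floor, such as the paralogs that failed the filter, were not resolved at this depth.

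Dorsal and ventral libraries share replicate numbers, but the labels do not say whether libraries of the same number hold the same mice. Such libraries did not deviate together (Pearson r across genes -0.032 to 0.0695, mean 0.0159, against -0.00207 between numbers). Not every library was closest to its own number, so that the numbers were not treated as pairs in the main fit. These values cannot show that the groups are independent, since both come from the same dissected hippocampi. With the replicate number as a block, 5 genes (6.33%, against 9.96% of all genes) were ventral-enriched, namely Rplp1, Rps15, Rps2, Rps26 and Rps27l. Rpl36al was not called in that fit (edgeR adjusted p = 0.0786), and the median was -0.31. With the block and the correction for GC content and length together, 15 were ventral-enriched, against 18.5% of all genes, the median was -0.46 and that of the other lists -0.40, beside -0.18 over all genes.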
